A study of Mus musculus with 6 samples.

Results

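The vomeronasal receptor genes of the mouse were followed through 3 lists of YBX1 peaks from a blood cell line. The set was every protein-coding gene of the RefSeq table for GRCm38.p6 whose symbol starts with Vmn1r or Vmn2r, which gave 355 of 21900 protein-coding genes, 231 Vmn1r and 124 Vmn2r. Of these, 352 had a usable chromosome position, 229 Vmn1r and 123 Vmn2r, out of 21779 protein-coding genes placed in all. Vmn2r122, Vmn1r186 and Vmn1r187 were not placed and were not analysed here. A peak was assigned to a gene when it lay in the gene's span or within 10 kb of either end. The choice of genes used only names, not measured values.

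Vomeronasal receptors are G protein-coupled receptors of the vomeronasal organ, a pheromone-sensing structure in the nose. V1R receptors (Vmn1r genes) have a short extracellular part, sit in neurons that use the G protein subunit Gnai2 and mainly detect small molecules. V2R receptors (Vmn2r genes) have a large extracellular domain, sit in neurons that use Gnao1 and detect peptides and proteins. Both families lie in clusters of tandem gene copies that are very alike in sequence, and the genes are normally silent outside sensory tissue.

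The cells were BaF3, a mouse line derived from pro-B cells, carrying JAK2 V617F, an activated form of the kinase JAK2 found in blood cancers, and all were untreated. YBX1, a DNA- and RNA-binding protein with a cold shock domain, was immunoprecipitated from 3 samples, and 3 input samples without antibody came from the same line. There was no precipitate with a control antibody and no line without JAK2 V617F. The labels do not say whether replicates were separate cultures or whether the line was 1 clone, so the spread between lists may be technical. Peak lists hold no expression values, so the labelled cell type could not be checked against markers.

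Each list set 1 precipitate against the input of the same number, after 1 tag was kept per position. Lists 1, 2 and 3 held 7053, 2628 and 2827 peaks from 67.0 M, 68.3 M and 69.7 M kept tags, against 87.6 M, 70.4 M and 67.0 M tags of input. The authors' pileup is the number of extended tags over a peak's summit, and their fold sets that pileup against the local input level. The local input level was recovered from both and is given as a multiple of the genome-wide level. A low-input peak is one where it was below 5 times that level. Over whole lists, the median pileup was 212, 191 and 185 tags, the median fold 1.78, 1.75 and 1.80, and low-input peaks numbered 176, 200 and 143. Because a list holds only peaks that passed the threshold, a gene without a peak has no value here, and its lack of a peak does not show that YBX1 was absent.

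The share of vomeronasal receptor genes with a peak was close to that of genes at large, while peaks per Mb of window were more numerous. A peak of any list lay in the window of 26 of 352 receptor genes (7.39%), and the share over all protein-coding genes was 7.4%. By list, 22 (6.25%), 12 (3.41%) and 11 (3.13%) receptor genes had one, beside 6.3%, 3.44% and 3.67% of all genes. A region found in at least 2 lists lay near 12 receptor genes (3.41%, all genes 3.64%), and one found in all 3 lists near 6 (1.70%, all genes 1.77%). Over the 3 lists the mean share was 4.26% ± 1.73 (SD, n = 3). The share per gene therefore stood near the background, although receptor genes are shorter, with a median span of 0.962 kb against 17.2 kb for all genes. Per Mb of window, the receptor genes had 2.92, 1.36 and 1.26 peaks in lists 1, 2 and 3, against 1.76, 0.692 and 0.729 for all protein-coding genes, a mean of 1.85 ± 0.927 against 1.06 ± 0.603 (SD, n = 3). The density was higher around receptor genes than around all protein-coding genes in each list, and windows of neighbouring genes that overlap were counted once. Against the chromosomes outside the receptor clusters, the mean ratio was 1.24 ± 0.142 (SD, n = 3). Vmn2r windows held a mean of 2.33 peaks per Mb, against 0.938 for genes of 10 to 50 kb outside both families. Vmn1r windows held 1.27, against 1.43 for genes under 5 kb outside both families, below them in lists 1 and 3 and above in list 2.

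The families differed in their counts. Of the Vmn2r genes, 13, 7 and 8 of 123 had a peak in lists 1, 2 and 3 (10.57%, 5.69% and 6.50%), a mean of 7.59% ± 2.61 (SD, n = 3). Of the Vmn1r genes, 9, 5 and 3 of 229 had one (3.93%, 2.18% and 1.31%), a mean of 2.47% ± 1.33 (SD, n = 3). In each list the Vmn2r share was above the Vmn1r share. The genes also differ in length, since the median span was 0.924 kb for Vmn1r and 24.5 kb for Vmn2r, and a longer gene has a wider window. Among protein-coding genes under 5 kb, the share with a peak was 3.32%, 1.89% and 1.77%, and the Vmn1r share was 1.18, 1.14 and 0.725 times that of the genes under 5 kb outside the family, above it in lists 1 and 2 and below it in list 3. Among genes of 10 to 50 kb it was 3.85%, 2.09% and 2.13%, and the Vmn2r share was 2.81, 2.79 and 3.15 times that of the genes of this length outside the family. Over the 3 lists, 12 Vmn1r genes had a peak (5.24%, genes under 5 kb 4.24%), 4 a shared region (1.71%), 1 a region in all 3 lists (0.743%) and 4 a low-input peak (0.563%), with the share of genes under 5 kb in brackets. For Vmn2r genes these numbers were 14 (11.4%, genes of 10 to 50 kb 4.66%), 8 (2.06%), 5 (0.957%) and 5 (0.913%), with the share of genes of 10 to 50 kb in brackets. The count behind the Vmn2r ratios is 14 Vmn2r genes in all, and some of their peaks are copies of each other, as given for each gene. Of these 14 genes, 7 lie in a single cluster on chromosome 7 that holds 28 of the Vmn2r genes. The ratios were not computed without that cluster. No test of this difference was run, because neighbouring copies of a gene are not independent.

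**Figure D1:**
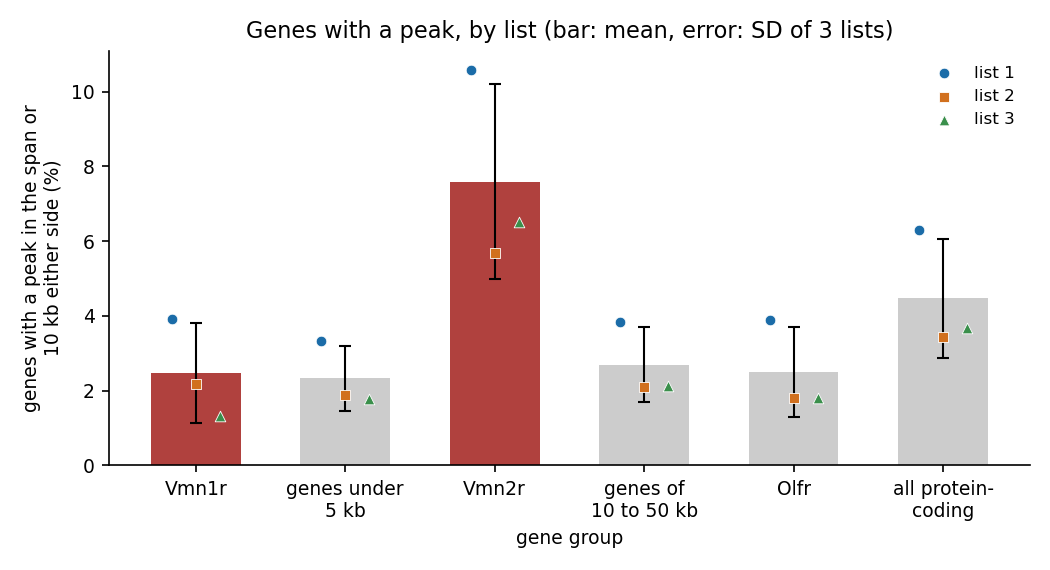
Share of genes with a peak within 10 kb (%, vertical axis) for Vmn1r, Vmn2r and comparison gene sets, with bars for the mean, error bars for the SD of the 3 lists and 1 marker per list. The 3 Vmn2r markers (10.57%, 5.69% and 6.50%) lie above the genes of 10 to 50 kb, while the Vmn1r markers lie close to the genes under 5 kb.

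Other families of chemosensory receptors had a share close to that of the Vmn1r genes, or few peaks. Of 1109 olfactory receptor genes (Olfr), 51 had a peak of any list (4.60%) and 21 a region of at least 2 lists (1.89%). By list, 3.88%, 1.80% and 1.80% of Olfr genes had one, a mean of 2.49% ± 1.197, beside 2.47% ± 1.33 for Vmn1r genes, which have a similar median span (0.951 and 0.924 kb). Peaks per Mb of window were 3.11, 0.953 and 0.953 for Olfr, above all receptor genes in list 1 and below them in lists 2 and 3. Taste receptors had 1 gene of 38, trace amine-associated receptors 0 of 15 and formyl peptide receptors 0 of 7.

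The peaks of the receptor windows recurred about as often as peaks elsewhere. The windows held 57 peaks, 30, 14 and 13 in lists 1, 2 and 3 (0.425%, 0.533% and 0.460% of each list), with 18 near Vmn1r and 39 near Vmn2r genes. No peak lay in the window of more than 1 receptor gene. They formed 34 regions, of which 15 were found in at least 2 lists (44.1%, against 37.4% of all 8156 regions) and 8 in all 3 (23.5% against 15.8%). Of the 19 regions seen once, 16 came from list 1, the longest list. Of the peaks in list 1, 14 of 30 were found again in another list (46.7%, Wilson 95% interval 30.2 to 63.9), beside 42.2% of the whole list. In list 2 it was 12 of 14 (85.7%, 60.1 to 96.0) beside 80.6%, and in list 3 12 of 13 (92.3%, 66.7 to 98.6) beside 81.6%. Each interval holds the value of the whole list, and intervals cover counting error only. They treat peaks as independent, yet in each list 3 of the peaks found again were equal copies at Vmn2r35. These copies also made up 3 of the 8 regions in all 3 lists.

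Enrichment was low at nearly every site, as it was over whole lists. The fold was under 2 at 41 of the 57 peaks and reached 5 at none, and the median was 1.81, 1.66 and 1.67 in lists 1, 2 and 3. Over whole lists, the fold was under 2 at 4678 of 7053, 1868 of 2628 and 1906 of 2827 peaks. It reached 5 at only 16, 23 and 22 of them. At the receptor peaks, the median pileup was 212, 221 and 215 tags. The local input there stood at a median of 23.3, 34.8 and 34.1 times the genome-wide level, against 28.2, 26.4 and 25.2 over whole lists. Peaks were then split by local input level. That level was recovered from pileup and fold, so the classes differ in pileup and fold in part by construction. At the 47 peaks over high input, pileups were at least 112 tags (median 231) with folds of 1.30 to 2.79, and 36 of them were found again. At the 10 low-input peaks, pileups were 17 to 59 tags (median 22.5) with folds of 2.56 to 4.96, and 2 were found again. Low-input peaks made up 6 of 30, 3 of 14 and 1 of 13 peaks (20%, 21.4% and 7.69%), against 2.50%, 7.61% and 5.06% of the whole lists. They lay near 9 receptor genes (2.56%, all genes 0.973%).

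**Figure D2:**
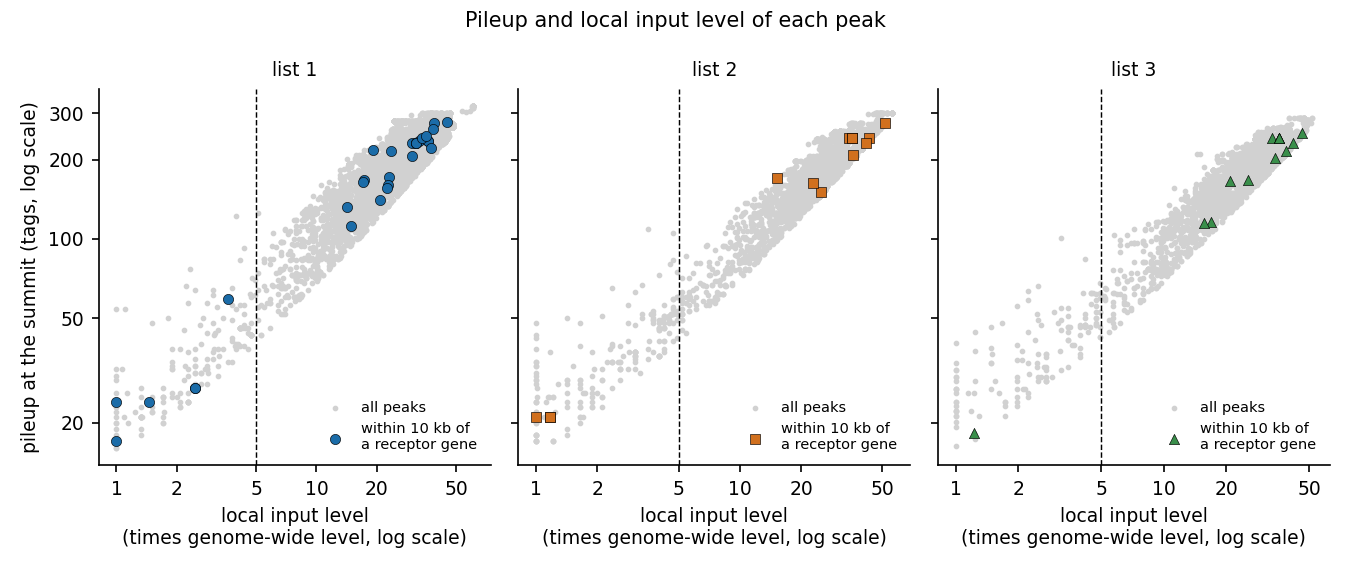
Pileup at the summit (tags, log scale) against local input level (multiple of the genome-wide level, log scale) in each list, with all peaks in grey and those within 10 kb of a receptor gene in colour. The dashed line marks 5 times the genome-wide level, and the 10 receptor peaks left of it have pileups of 17 to 59 tags.

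Among the V1R genes, 12 of 229 had a peak in the window, but in 2 of them alone, Vmn1r248 and Vmn1r259, did it touch the gene itself. Both are minus-strand genes of 918 bp in the cluster of 86 Vmn1r genes on chromosome 7, 1223 kb apart. In list 2, Vmn1r248 had a pileup of 21 tags and a fold of 3.79 at chr7:21795806-21796015, and Vmn1r259 had the same pileup and fold at chr7:23019001-23019210. Each peak was 210 bp long, covered 205 bases of the gene at the end away from its start, and stood over input at 1.17 times the genome-wide level. Lists 1 and 3 had no peak at either gene. A gene copy and its twin therefore gave the same values, at the same place in the gene.

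The sequence before each start shows how alike these genes are. Printed for each gene are the 250 bases upstream of the start from RefSeq (GRCm38.p6), 5′ to 3′ on the minus strand, at chr7:21796729-21796978 for Vmn1r248 and chr7:23019924-23020173 for Vmn1r259. Capitals mark CCAAT and its reverse complement ATTGG, the core of the Y box for which YBX1 is named.
Vmn1r248: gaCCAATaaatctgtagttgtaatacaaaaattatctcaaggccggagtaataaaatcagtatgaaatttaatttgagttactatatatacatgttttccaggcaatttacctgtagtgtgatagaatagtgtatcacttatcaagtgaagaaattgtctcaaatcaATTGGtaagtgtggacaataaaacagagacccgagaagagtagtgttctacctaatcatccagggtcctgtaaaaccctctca
Vmn1r259: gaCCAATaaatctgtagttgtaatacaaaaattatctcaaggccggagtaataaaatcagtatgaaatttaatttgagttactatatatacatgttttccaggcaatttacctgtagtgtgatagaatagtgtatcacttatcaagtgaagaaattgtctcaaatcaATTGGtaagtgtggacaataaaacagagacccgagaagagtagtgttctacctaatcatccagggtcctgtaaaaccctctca
The sequences were the same at every base, and so was the 300-base promoter window of Vmn1r127, which had no peak. The peaks lay at the other end of the genes, so the printed bases do not underlie them.

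The remaining V1R peaks lay outside the genes. Vmn1r63 was the V1R gene with a region in all 3 lists, at chr7:5834772-5835048, with 231, 242 and 241 tags and folds of 1.90, 1.70 and 1.79. All 3 lists gave similar pileups there, but the region lay 8.54 kb from the annotated span and was among the last inside the 10 kb limit. Just outside the limit lay Vmn1r88, 10394 bp from a peak of list 1 with 216 tags and a fold of 1.89, and Vmn1r77, 10748 bp from one with 86 tags and a fold of 2.06.

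Vmn1r101 had a fold above 2 in both lists that held its region, with 165 tags in list 1 (fold 2.38) and 171 in list 2 (fold 2.69), about 6.06 kb upstream of its start, and no peak in list 3. Vmn1r48 had 2 peaks downstream of the gene, 872 and 160 bp from its end, with 216 and 217 tags and folds of 2.26 and 2.79. The second had the highest fold of the 47 receptor peaks over high input and the highest −log10 q of all 57, at 33.0, yet both were in list 1 only. Vmn1r220 had a downstream region 8.04 kb away, with 132 tags in list 1 (fold 2.28) and 115 in list 3 (fold 1.82). Near Vmn1r30, a region 3.32 kb downstream had 141 tags in list 1 (fold 1.67) and 151 in list 2 (fold 1.46).

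Single peaks lay near 5 further V1R genes. Those of list 1 had 236 tags at Vmn1r194 (fold 1.79, 1883 bp away), 276 at Vmn1r57 (fold 1.76, 1178 bp away), 59 at Vmn1r214 (fold 3.86, 6285 bp away) and 17 at Vmn1r238 (fold 3.57, 3896 bp away). That of list 3 had 116 tags at Vmn1r204 (fold 1.70, 6108 bp away). The peaks at Vmn1r214 and Vmn1r238 were low-input, at 3.59 and 1.00 times the genome-wide level. The peak at Vmn1r57 had 4 copies elsewhere in the same list, equal in length, summit offset, pileup and fold.

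**Figure D3:**
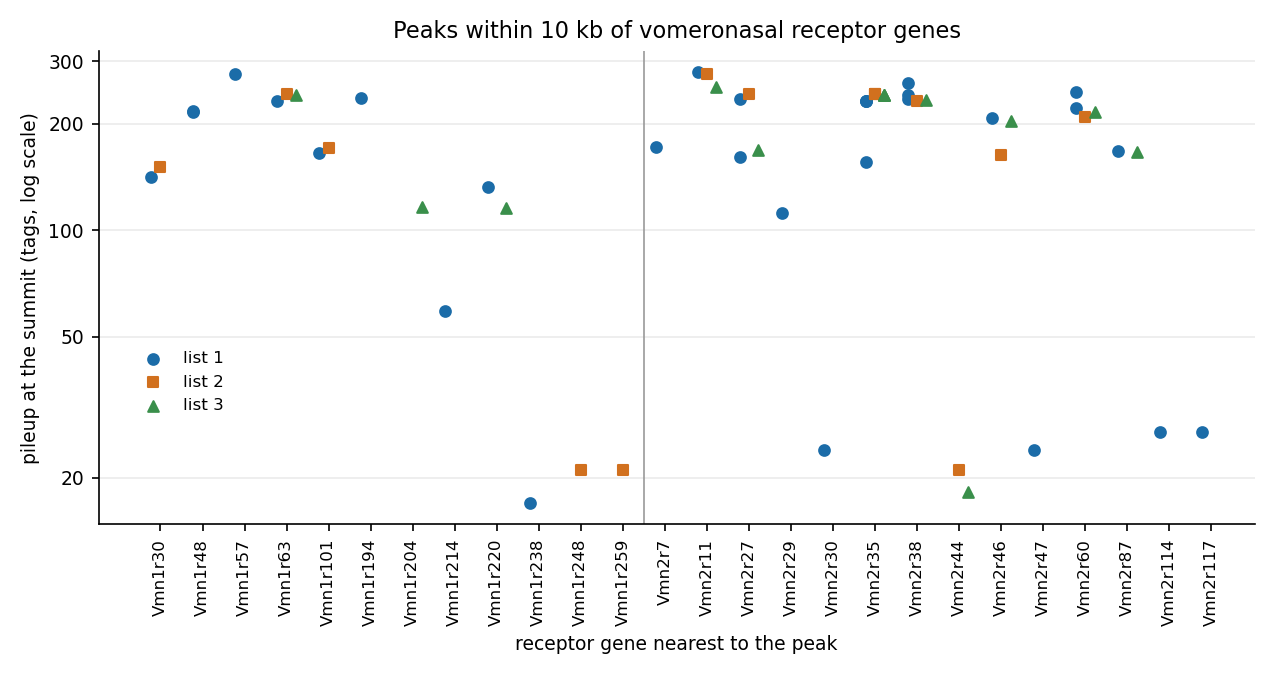
Pileup at the summit (tags, log scale) of every peak within 10 kb of a receptor gene, by gene, with Vmn1r genes left of the vertical line and 1 marker shape per list. Most points lie between 112 and 279 tags, and the 10 low-input peaks lie between 17 and 59.

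Among the V2R genes, 12 of 14 with a peak had one over the gene itself, and 5 had a region found in all 3 lists. Over the span alone this was 9.76% of the 123 Vmn2r genes, beside 2.17% of protein-coding genes of 10 to 50 kb and 4.76% of all. For the short Vmn1r genes it was 0.873%, beside 0.502% of genes under 5 kb. The 5 genes with a region in all 3 lists were Vmn2r35, Vmn2r38, Vmn2r46, Vmn2r60 and Vmn2r11. Long introns separate the exons of V2R genes, but the gene table used gives no exons, so peaks inside spans were not divided into exon and intron.

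Vmn2r35 (chr7:7786151-7819867, minus strand) had the most peaks of any receptor gene. Peaks began at 7799562, 7804147 and 7808732 on chromosome 7, spaced by 4585 bp, and each was in all 3 lists. At each position the pileup was 231, 242 and 241 tags in lists 1, 2 and 3, with folds of 1.81, 1.66 and 1.67 and local input of 31.4, 35.3 and 35.6 times the genome-wide level. Equal values at 3 places in every list mean that these peaks cannot be counted as 3 independent sites. Another equal copy began at 8599348, 110.4 kb from the nearest protein-coding gene, Vmn2r45. One more peak, at 7811307, was in list 1 only, with 156 tags and a fold of 1.71.

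Vmn2r38 had a region inside the gene in all 3 lists, with 235, 232 and 233 tags and folds of 1.61, 1.35 and 1.37, 19.96 kb after its start. It also had 2 peaks in list 1 only, with 241 and 261 tags. Vmn2r60, with a span of 79.3 kb the longest of the 26 genes with a peak, had 221, 209 and 215 tags at one place and folds of 1.46, 1.41 and 1.37, with a further list 1 peak of 246 tags. At the shared site of each gene the 3 lists gave similar pileups.

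Vmn2r11 on chromosome 5 had 279, 276 and 253 tags in lists 1, 2 and 3, with folds of 1.54, 1.30 and 1.36, 7.26 to 7.30 kb from the gene. The input there stood at 44.8, 51.5 and 46.0 times the genome-wide level, the highest level in each list among the receptor peaks. Peaks equal to this one in length, summit offset, pileup and fold numbered 12, 5 and 3 elsewhere in lists 1, 2 and 3, on other chromosomes too. They lay at different places in each list, and sequences under them were not compared.

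Near Vmn2r46, 2.22 to 2.71 kb from the gene, the pileup was 207, 163 and 203 tags with folds of 1.70, 1.72 and 1.47. The peaks of lists 2 and 3 did not overlap each other there and were joined through the peak of list 1. Each had an equal copy 269071 bp lower on the chromosome. The same shift linked Vmn2r47 to the neighbouring gene model Gm10302, which has the same span of 24544 bp. The list 1 peak at Vmn2r47, with 24 tags and a fold of 3.64, had its copy inside Gm10302.

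Vmn2r27 on chromosome 6 had 2 shared regions inside the gene. The first had 235 tags in list 1 (fold 1.60) and 243 in list 2 (fold 1.37), and the second 161 tags in list 1 (fold 1.73) and 168 in list 3 (fold 1.63). Vmn2r87 on chromosome 10 had 167 tags in list 1 (fold 2.38) and 166 in list 3 (fold 1.97), 9.51 kb after its start. Both genes thus carried peaks of 1 precipitate that another precipitate did not give.

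Low-input peaks lay inside 5 V2R genes, where the pileup was small and the fold higher. Vmn2r44 had the only low-input receptor peak found again, with 21 tags in list 2 (fold 4.30) and 18.3 in list 3 (fold 3.23), 5.64 and 5.63 kb after its start, and none in list 1. Vmn2r30 had the highest fold of the 57 peaks, 4.96 in list 1 with 24 tags, 1036 bp after its start, and no peak in lists 2 and 3. Vmn2r114 and Vmn2r117, minus-strand genes on chromosome 17, each had 27 tags and a fold of 2.56 in list 1, 2143 and 2120 bp after their starts. These 2 peaks differed in length, 203 and 178 bp, so they were not counted as copies.

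The upstream sequences of Vmn2r114 and Vmn2r117 were alike but not the same. They are printed because the peaks were equal in pileup and fold and lay at nearly the same distance from the start. Outside the receptor windows, 2 further peaks of list 1 had this pileup and fold. The 250 bases before each start (RefSeq, GRCm38.p6, 5′ to 3′ on the minus strand) lie at chr17:23312314-23312563 and chr17:23479598-23479847, and capitals mark the bases at which they differ.
Vmn2r114: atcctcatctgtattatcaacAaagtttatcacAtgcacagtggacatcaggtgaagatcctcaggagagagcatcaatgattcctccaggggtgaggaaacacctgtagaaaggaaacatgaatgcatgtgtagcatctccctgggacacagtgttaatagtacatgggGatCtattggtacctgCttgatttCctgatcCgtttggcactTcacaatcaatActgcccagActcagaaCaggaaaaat
Vmn2r117: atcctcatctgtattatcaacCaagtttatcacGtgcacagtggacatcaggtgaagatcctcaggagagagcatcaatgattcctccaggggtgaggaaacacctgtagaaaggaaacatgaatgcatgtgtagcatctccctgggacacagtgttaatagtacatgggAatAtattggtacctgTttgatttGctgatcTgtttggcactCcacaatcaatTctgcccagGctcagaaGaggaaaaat
They matched at 95.6% of positions, with 11 mismatches and no gap. Neither peak overlaps the printed bases.

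Vmn2r29 and Vmn2r7 had 1 peak each, both in list 1. At Vmn2r29 it had 112 tags and a fold of 1.84 over input of 14.9 times the genome-wide level, and its summit lay 116 bp after the start, the closest of the 57 peaks to a receptor start with a given strand. The gene Clcn4 is also within 10 kb of it. At Vmn2r7 it had 172 tags and a fold of 1.83 in the overlap with the pseudogene Vmn2r-ps11.

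The promoter of Vmn2r29 differs in composition from those of its family. The 250 bases before its start lie at chr7:7278290-7278539 on the minus strand (RefSeq, GRCm38.p6), and capitals mark CG dinucleotides.
Vmn2r29: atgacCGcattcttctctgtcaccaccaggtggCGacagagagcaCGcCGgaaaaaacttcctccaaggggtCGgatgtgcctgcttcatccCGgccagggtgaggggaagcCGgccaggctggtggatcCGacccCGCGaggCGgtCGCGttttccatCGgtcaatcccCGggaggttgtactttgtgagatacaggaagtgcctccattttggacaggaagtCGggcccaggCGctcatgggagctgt
The printed stretch holds 17 CG and no CCAAT or ATTGG. Over the full window, from 250 bases before to 50 after the start, GC content was 62.3%, the highest of the 324 receptor windows, which ranged from 24.3% to 62.3% with a median of 36.7%. Its best match among the other receptor promoters was 48.1%, the lowest of the 323 genes with a sequence.

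Promoters of the receptor genes were low in GC and CG, whether or not the gene had a peak. A sequence was found for 323 of 355 genes, and for 22 of the 26 with a peak. No CG was present in 24.1% of receptor windows, against 5.43% of all 32851 promoter windows, and the median number of CG was 1 against 7. The letters CCAAT, or ATTGG for the other strand, were present in 67.0% of Vmn1r and 29.7% of Vmn2r windows, against 37.4% of all windows of this length. They were in 43.5% of windows of receptor genes with a peak and 54.2% of those without. These groups differ in family mix, since Vmn2r genes were 14 of the 26 genes with a peak and 123 of the 352 placed genes. Shares by family were not computed for genes with a peak, but the letters could be read gene by gene. Of the Vmn1r genes with a peak and a sequence, all but Vmn1r48, Vmn1r194 and Vmn1r220 held them. Of the Vmn2r genes with a peak and a sequence, only Vmn2r60, Vmn2r114 and Vmn2r117 did. The pooled shares therefore mix families that differ in these letters. No peak of any list overlapped a receptor promoter window, and a match is a description of the letters only.

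Likeness between copies was compared for genes with and without a peak. Comparing each promoter with its closest other receptor promoter gave a median identity of 95.5% for the 22 genes with a peak and 90.1% for the 301 without. At least 95% identity was reached by 11 of 22 (50%) and 109 of 301 (36.2%), and an identical partner was present for 4 of 22 and 58 of 301. The lowest values were 48.1% and 50.8%. The groups overlapped over nearly their whole range, and no test was run. They also differ in family mix, and this comparison was not split by family. Over all genes with a sequence, at least 95% was reached by 40.3% of Vmn1r and 31.6% of Vmn2r genes. Some genes with a peak are near-copies of each other, such as Vmn1r248 and Vmn1r259, so they are not independent. There were 25 groups of identical promoters holding 62 genes. How reads that match several copies were placed is not given in the sources used here, so values at near-identical copies are uncertain, and the part of this in the results was not tested. Of the 57 receptor peaks, 7, 5 and 5 in the 3 lists had an equal copy elsewhere (23.3%, 35.7% and 38.5%, against 22.2%, 23.3% and 18.5% of whole lists).

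Along the chromosomes, peaks gathered in some receptor clusters and were scarce in others. Genes less than 1 Mb apart were joined into 27 clusters, of which 13 had a peak in a receptor window and 9 a region of at least 2 lists. The 14 clusters without one held 76 genes, and single genes made up 8 of the 27 clusters. For comparison, a peak of any list lay near 7.4% of all protein-coding genes. Among genes under 5 kb the share was 4.24%, and among genes of 10 to 50 kb it was 4.66%. The cluster with the most peaks was on chromosome 7 from 7.21 to 13.2 Mb, with 24 Vmn1r and 28 Vmn2r genes. Of its 52 genes 7 had peaks, all of them Vmn2r genes. The peaks numbered 11, 6 and 6 in lists 1, 2 and 3, in 12 regions of which 6 were shared and 5 were in all 3 lists. The equal copies at Vmn2r35 made up 3 of the peaks in each list and 3 of those 5 regions. The cluster from 20.1 to 24.1 Mb, with 86 Vmn1r genes, had 4 peaks near 3 genes. On chromosome 17, the cluster from 17.7 to 21.3 Mb had 36 receptor genes and no peak in a window. The 15 Vmn2r genes from 84.9 to 87.0 Mb on chromosome 7 also had none, although 26 peaks lay between them.

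**Figure D4:**
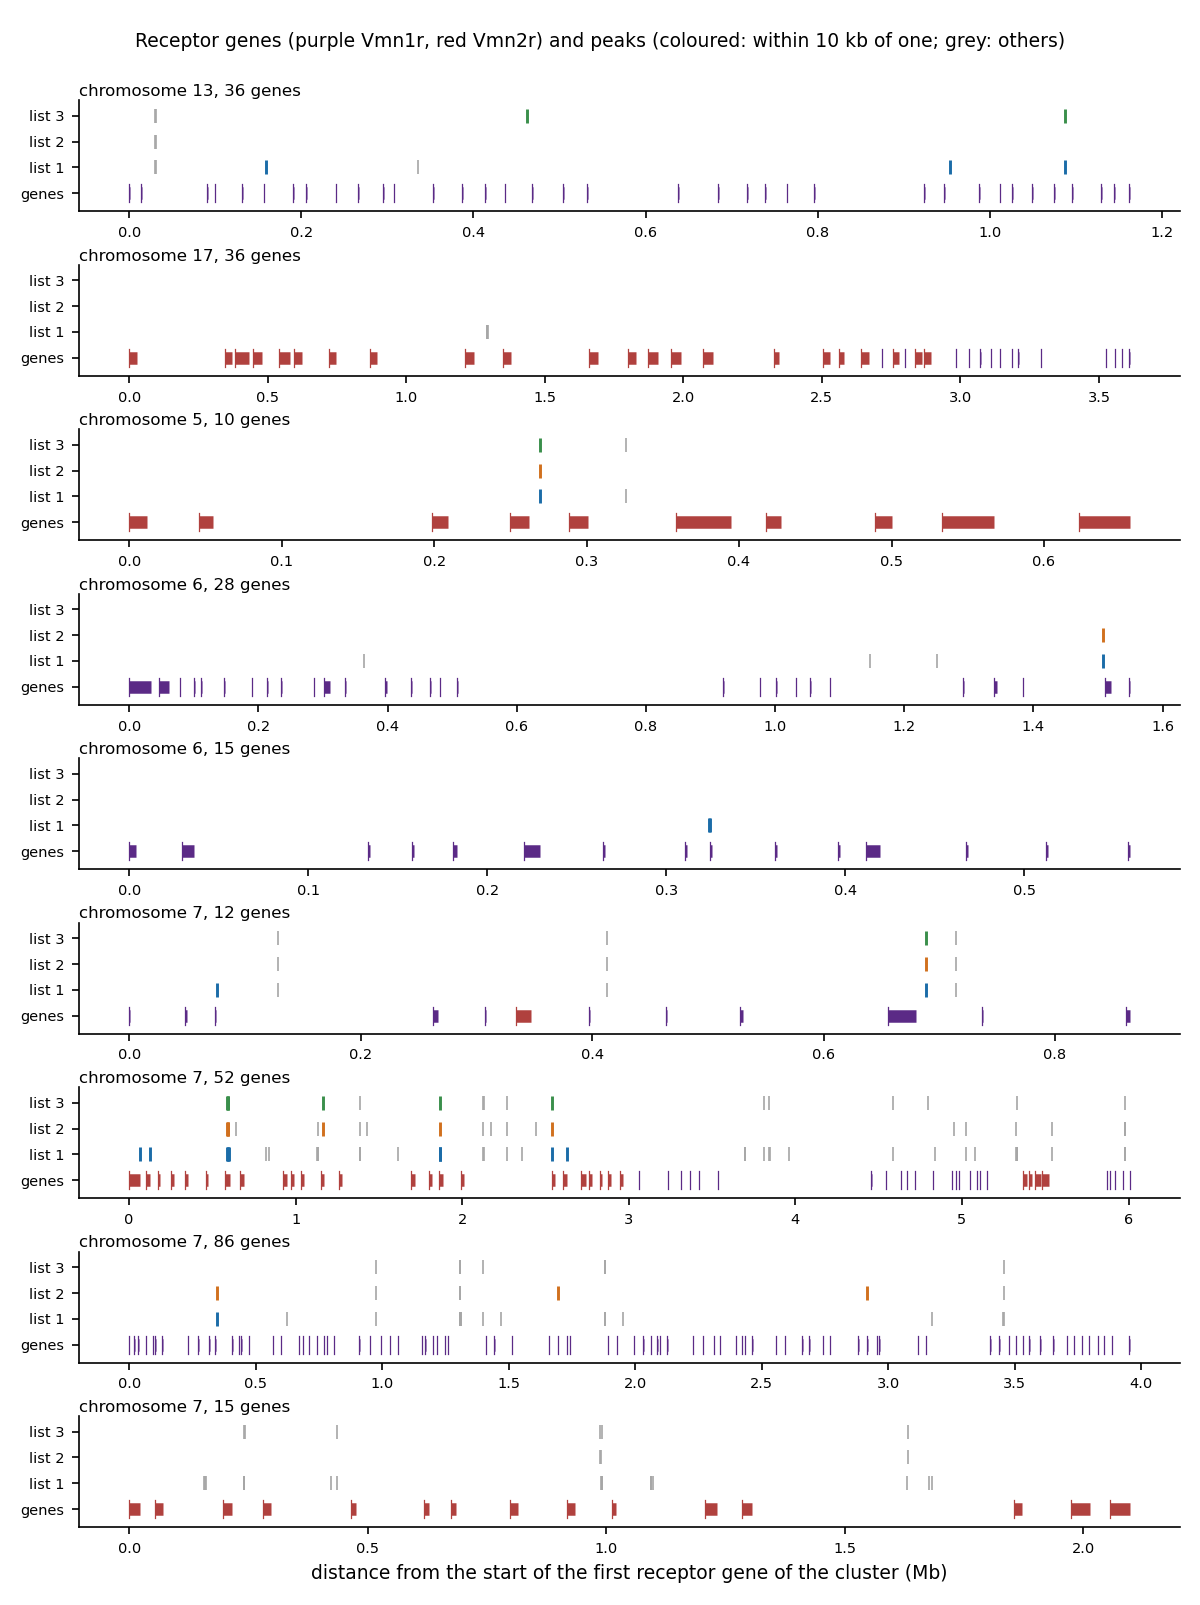
The 9 clusters with at least 10 receptor genes, drawn to scale as distance from the start of each cluster (Mb), with receptor genes and the peaks of each list marked. Peaks are dense in the cluster of 52 genes on chromosome 7 and sparse in the cluster of 36 genes on chromosome 17.

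Pooled over chromosomes, the clusters held more peaks per Mb than the rest of the chromosomes in each list. At 10 kb the receptor windows were less dense than the ground between them. Cluster extents covered 26.4 Mb and held 4.66, 1.59 and 1.86 peaks per Mb in lists 1, 2 and 3, a mean of 2.70 ± 1.70 (SD, n = 3). The rest of the chromosomes held 2.62, 0.977 and 1.05, a mean of 1.55 ± 0.927. The ratio was 1.78, 1.63 and 1.77, a mean of 1.73 ± 0.0844, above 1 in each of the 3 lists. The exact sign-flip test over lists gave a two-sided p of 0.25, which is the smallest p that 3 lists allow. Chromosome 7 made up 15.1 Mb of the cluster extents and held 84, 35 and 36 of their 123, 42 and 49 peaks. The pooled ratio thus rests largely on chromosome 7, and it was not computed without that chromosome. On other chromosomes with many receptor genes the order varied. Cluster extents were denser than the rest in each list on chromosome 13, and in no list on chromosome 17. On chromosome 6 they held 4.76, 0.892 and 0.892 peaks per Mb against 2.60, 0.936 and 0.971, above the rest in list 1 only. Inside the receptor windows the density was 2.92, 1.36 and 1.26 per Mb, and in the parts of the clusters outside the windows it was 5.78, 1.74 and 2.24. The windows therefore held 0.505, 0.782 and 0.565 times the density of the ground between them. The density around receptor genes depended on the window, with a mean of 3.27 ± 1.54 peaks per Mb in the gene spans alone. It was 2.89 ± 1.56 at 1 kb, 1.85 ± 0.927 at 10 kb and 3.02 ± 1.82 at 50 kb (SD, n = 3). The ground outside the 10 kb windows held 3.25 ± 2.20, but it leaves out the flanks of the spans. The density of all ground outside the spans was not computed, so spans and ground were not compared on equal terms. The share of receptor genes with a peak was 3.98% in the gene span alone (all genes 4.76%), 7.39% at 10 kb (7.40%), 33.0% at 50 kb (18.4%) and 53.4% at 100 kb (29.5%). Windows of neighbouring genes overlap at the wider settings and share peaks.

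Summed over their clusters, chromosomes 7 and 17 lay on opposite sides of the rest of the chromosome. On chromosome 7, which holds 176 of the 352 genes, cluster extents had 5.58, 2.32 and 2.39 peaks per Mb against 3.04, 1.04 and 1.21 in the rest of the chromosome, ratios of 1.83, 2.24 and 1.97. On chromosome 17, with 46 genes, they had 1.49, 0.213 and 0.426 against 2.50, 0.964 and 0.929, ratios of 0.596, 0.221 and 0.459. The ratio was above 1 in every list on chromosome 7 and below 1 in every list on chromosome 17, where lists 2 and 3 contributed 1 and 2 peaks. The low value on chromosome 17 came from the cluster of 36 genes, with 0.826, 0 and 0 peaks per Mb. The cluster of 8 Vmn2r genes that holds Vmn2r114 and Vmn2r117 had 4.20, 1.05 and 2.102, from 4, 1 and 2 peaks, above the rest of the chromosome in each list. The exact sign-flip test, which cannot go below 0.25 with 3 lists, gave a two-sided p of 0.25 on either chromosome.

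**Figure D5:**
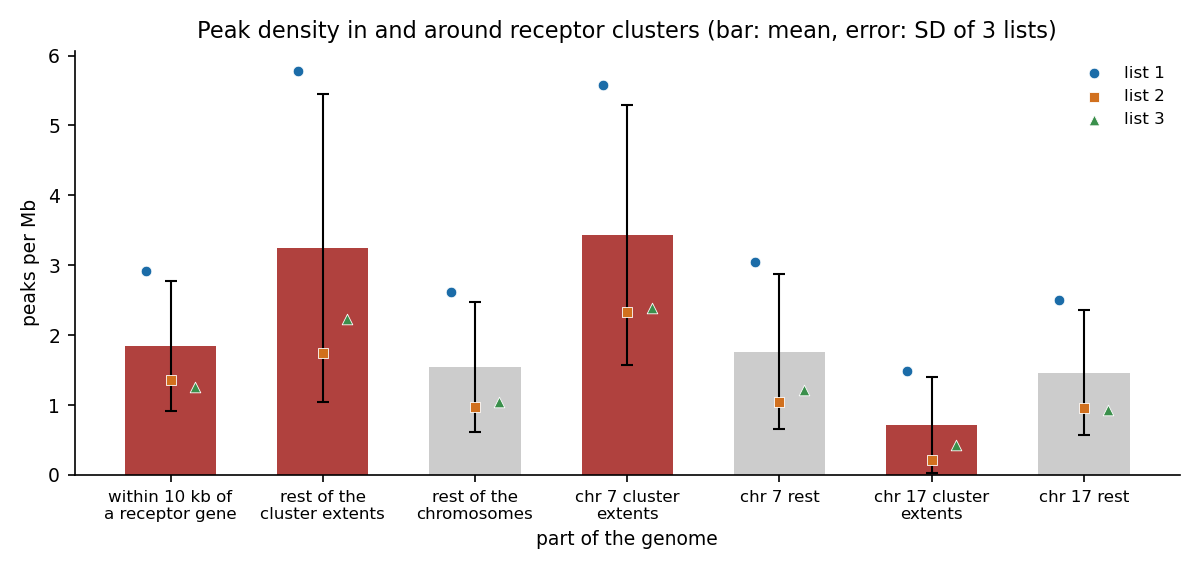
Peaks per Mb within 10 kb of receptor genes, in the rest of the cluster extents, in the rest of the chromosomes, and on chromosomes 7 and 17, with bars for the mean, error bars for the SD of the 3 lists and 1 marker per list. In each list, chromosome 7 extents lie above and chromosome 17 extents below the rest of their own chromosome.

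Genes of the ligands and of the signalling machinery were read the same way. The list held 72 genes, chosen with earlier results of these data known. Of them, 9 had a peak of any list in the window (all genes 7.4%), and all 9 were Mup genes, which encode major urinary proteins, some of them ligands of V2R neurons, among 22 Mup genes. The Mup genes with a peak were Mup8, Mup9, Mup11, Mup12, Mup13, Mup15, Mup16, Mup19 and Mup22, on chromosome 4. Their 13 peaks had 28.8 to 71.1 tags except for 260 tags at Mup19 and 261 at Mup9, both in list 1, and none was found in more than 1 list. No peak lay near any of 15 Esp genes, which encode exocrine gland peptides, or any of 35 genes of signalling, neuron identity and related receptors, among them the channel gene Trpc2 and the G protein genes Gnai2 and Gnao1.

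Several of these counts rested in part on list 1. Without replicate 1, 15 receptor genes had a peak in place of 26 (4.26%, all genes 4.91%), 6 had a shared region in place of 12, and 8 regions were shared in place of 15. With any list left out, a shared region must be in both others. Leaving out replicate 2 or replicate 3 gave 9 genes with a shared region and 11 shared regions. With peaks below a −log10 q of 5 left out, 7 genes had a shared region and 2 had one in all 3 lists. The share of all genes with a shared region was not computed at these settings.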

How the data were processed

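The samples were 3 YBX1 immunoprecipitates and 3 inputs, grouped by their titles, and the files were 3 peak tables with 3 summit lists on GRCm38. Per the submitters' processing notes, Trim Galore did the trimming and MACS2 the peak calling. The aligner and the handling of reads with several matches are not given in the sources used here. Per the file headers, MACS 2.1.1.20160309 ran on each precipitate against its input with a q threshold of 0.01 and 1 tag kept per position. The deposited pileup is a signal in tags after scaling, the deposited fold is a ratio, pileup plus 1 over local input plus 1, and −log10 p and q are the deposited caller values. Each kind of list exists once per replicate, so lists were the replicates (n = 3).

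The local input level was solved from pileup and fold and divided by the genome-wide level. Peaks of different lists were joined at an overlap of at least 1 bp. A copy is a peak of the same list with equal length, summit offset, pileup and fold. Entries of the gene table that start below 3 Mb, other than on Y, were treated as not placed. Named genes were those with a region in all 3 lists, with peaks over the span in at least 2 lists, with the 10 highest folds, with a peak within 1 kb of an end, with the most peaks of their cluster or with a low-input peak. Vmn1r57, Vmn1r194 and Vmn1r204 fall outside this rule and were named after their values were seen, as were the genes whose promoters are printed. The receptor genes, lists and limits were chosen with earlier results of these data known. Protein sequences and sequences under peaks were not analysed here. Counting was tested on simulated data. Python 3.11.15, pandas 2.3.3, scipy 1.17.1 and Biopython 1.88 were used. Alternatives covered the window, the overlap rule, the q threshold, copies, cluster gaps, each family alone, low-input peaks and each replicate left out.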

Additional observations from a re-analysis of the deposited data

How the results depend on the processing

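With the window cut to the gene span, 14 receptor genes had a peak, 6 a shared region and 3 a region in all 3 lists, with 11.7 peaks per list, 3.27 per Mb and 9 shared regions. At 1 kb these were 15, 6, 3, 12.3, 2.89 and 9, with a median pileup of 224, and at 50 kb 116, 60, 25, 67.3, 3.02 and 54, with 192 tags. At a −log10 q of at least 5, 7 genes had a shared region, 2 one in all 3 lists, 9 regions were shared and the median pileup was 233. Leaving out peaks with copies gave 3 genes with a region in all 3 lists and 168 tags. Vmn1r genes alone gave 12, 4 and 1 genes, 6 peaks per list, 4 shared regions, 153 tags and a fold of 2.25, and Vmn2r genes alone 14 genes and 227 tags. Leaving out low-input peaks, an alternative chosen after seeing the data, gave 17 genes and 231 tags. With each replicate left out in turn, the ranges were 15 to 25 genes with a peak, 6 to 9 with a shared region, 6 to 9 with a region in every remaining list, 13.5 to 22 peaks per list, 1.31 to 2.14 per Mb, 8 to 11 shared regions, 213 to 218 tags and a fold of 1.66 to 1.74. The number of clusters was 30 at gaps of 500 kb and 22 at 3 Mb. An overlap of 50% of the shorter peak and a summit inside the window kept every count within 1.5 times. No paired analysis was possible because each list already sets a precipitate against the input of its number and no result tests precipitates against inputs. The sign-flip test pairs parts of the genome within a list, not samples. The cause of these shifts was not tested. Pileups are capped by keeping 1 tag per position, and genes without a peak have no value.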

Other observations

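Pseudogenes of the receptor families, which the gene set leaves out, carried peaks more often than the receptor genes did. Of 286 placed pseudogenes whose symbol starts with Vmn1r or Vmn2r, 34 had a peak of any list within 10 kb (11.9%), against 590 of 10510 pseudogenes in all (5.61%) and 7.39% of the receptor genes. A region of at least 2 lists lay near 12 of them (4.20%), against 2.23% of all pseudogenes and 3.41% of the receptor genes. Among Vmn2r genes alone, 11.4% had a peak within 10 kb and 6.50% a region of at least 2 lists. Over the span alone, 13 of 286 pseudogenes and 14 of 352 receptor genes had a peak. Of the 77 peaks near these pseudogenes, 9 also lay in the window of a receptor gene. Vmn2r-ps23 had a peak in each list, with 290, 300 and 276 tags. Vmn2r-ps95 and Vmn2r-ps96 on chromosome 13 each had 45 tags and a fold of 2.63 in list 2, over input of 4.001 times the genome-wide level. No test of these shares was run, since neighbouring copies are not independent.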
